A study of Mus musculus with 3 samples.

Results

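T_cell_2 is one of the 4 numbered T cell clusters among the CD45+ immune cells of the healthy mouse kidney. Its members were taken from the cluster name that the deposited table gives to each cell, and they numbered 1664 of 20266 cells. The neighbouring clusters T_cell_1, T_cell_3 and T_cell_4 held 2375, 1036 and 161 cells. The cells came from untreated wild-type male C57BL/6J mice of 10 weeks, and all groups shared this genotype, sex and age. From each kidney the cortex, the outer part (OM) and the inner part (IM) of the medulla were separated by dissection and digested with enzymes, and living CD45+ cells were sorted for single-cell RNA sequencing in droplets. The experiment was run as 3 datasets, named Aachen, Bonn and Hamburg, and each of them held all 3 compartments. The cells of one compartment of one dataset are called a library here, which gives 9 libraries, and the dataset served as the replicate (n = 3).

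CD8+ T cells recognise peptides on MHC class I molecules through the T cell receptor and the CD8 coreceptor, and they kill target cells by releasing perforin and granzymes. After they have met antigen they lose the programme of naive cells, which carries them between blood and lymph nodes, and gain chemokines, cytokines and adhesion molecules of effector and memory cells. In the kidney, as in other non-lymphoid organs, part of the memory T cells circulate and part reside in the tissue. The comparison of the compartments asked whether T cells of this kind carry a transcriptional trace of the region from which they were isolated.

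The libraries differed in size and in depth. T_cell_2 held 157, 195 and 267 cells in the cortex, OM and IM of Aachen, 287, 40 and 78 cells in Bonn, and 254, 144 and 242 cells in Hamburg. The total of unique molecular identifiers (UMIs, one per captured RNA molecule) in T_cell_2 was 4646719 and ranged from 133764 in the Bonn OM to 1096274 in the Bonn cortex. The median per T_cell_2 cell was 976 UMIs in Aachen, 3042 in Bonn and 3308 in Hamburg. Aachen held no UMI of any gene of the T cell receptor variable regions and lacked 472 genes that had more than 200 UMIs in both other datasets, so such genes rest on the 6 libraries of Bonn and Hamburg. Levels are given as counts per 1000000 UMIs (CPM) of the summed cells of a library. Since the clusters were made from the same genes, levels in one cluster against another are a description with no test.

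The markers of the T cell lineage were present. Cd3e and Cd3d, which encode chains of the CD3 complex, had median levels of 1073 CPM (range 504 to 1324) and 952 CPM (690 to 1204) over the 9 libraries of T_cell_2. The corresponding medians were 1083 and 897 CPM in T_cell_1 and 12.3 and 24.9 CPM in the B cell cluster B_cell_1. To compare shares of cells across depths, each cell was thinned to 500 UMIs, which kept 1615 of the 1664 cells. A UMI of Cd3d, Cd3e or Cd3g was found in 77.4% of thinned T_cell_2 cells (94.7% unthinned) against 1.96% of thinned B_cell_1 cells (4.36% unthinned), which gives the level of free RNA and of other cells in the droplets. Thus CD3 set the cluster apart from B cells, but not from T_cell_1, where the thinned share was 77.0%.

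The coreceptor genes set T_cell_2 apart from the other T cell clusters. In the cortex, OM and IM, Cd8a was at 716, 621 and 665 CPM in Aachen, 871, 815 and 1028 CPM in Bonn, and 648, 508 and 580 CPM in Hamburg. The median of these values was 665 CPM, against 44.3 CPM in T_cell_1, 191 CPM in T_cell_3 and 0 in T_cell_4, and T_cell_2 was above T_cell_1 and T_cell_3 in 9 of 9 libraries. Cd8b1, the second chain of the coreceptor, had medians of 1085 CPM in T_cell_2, 52.1 CPM in T_cell_1 and 537 CPM in T_cell_3. In contrast, Cd4 was low, with a median of 12.8 CPM (2.15 to 23.1) against 158 CPM in T_cell_1.

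Shares of cells gave the same order. After thinning, a UMI of Cd8a or Cd8b1 was found in 53.9% of T_cell_2 cells (80.2% unthinned), 24.0% of T_cell_3, 3.41% of T_cell_1 and 0.364% of B_cell_1 cells. The thinned share in T_cell_2 ranged from 47.1% to 63.6% over the libraries. Among the T_cell_2 cells with a CD8 UMI, 1.05% in Aachen, 2.02% in Bonn and 0.781% in Hamburg also had a UMI of Cd4. Among those without a CD8 UMI, Cd4 was found in 0.704% in Aachen, 10.2% in Bonn and 10.9% in Hamburg. After thinning, Cd4 was found in 0, 0.441% and 0 of the cells with a CD8 UMI in Aachen, Bonn and Hamburg. It was found in 0.806%, 2.25% and 0.629% of those without. Whether the cells without a CD8 UMI lacked CD8 RNA or had it missed at this depth was not tested. By these coreceptor genes, T_cell_2 was a CD8 T cell-like cluster.

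Genes of cytotoxic effector function led the cluster. Ccl5, a chemokine of memory CD8+ T cells and NK cells, was at 22913, 24688 and 21659 CPM in the cortex, OM and IM of Aachen, at 14252, 16447 and 18782 CPM in Bonn, and at 12857, 13709 and 14267 CPM in Hamburg. The lowest of these libraries lay above the highest library of T_cell_1, which had 4125 CPM, and above that of T_cell_3, which had 1373 CPM. The median ratio to the next T cell cluster, T_cell_1, was 7.93, and the level was close to the 17022 CPM of the natural killer (NK) cell cluster NK_cell_1. A Ccl5 UMI was found in 95.4% of thinned T_cell_2 cells (99.0% unthinned), against 38.1% in T_cell_1, 8.90% in T_cell_3 and 1.65% in B_cell_1.

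Granzymes, the proteases of the cytotoxic granule, were also highest in T_cell_2 among the T cell clusters. Gzma was at 632, 379 and 481 CPM in the cortex, OM and IM of Aachen, at 592, 957 and 712 CPM in Bonn and at 328, 446 and 512 CPM in Hamburg, and no T_cell_1 library exceeded 57.8 CPM. The median of Gzma (512 CPM) was 18.3 times that of T_cell_1, which was the largest ratio among all genes ranked, but NK_cell_1 reached 10335 CPM. Gzmk showed another pattern, with a median of 239 CPM (158 to 385) in T_cell_2, 33.7 CPM in T_cell_1 and 0 in T_cell_3, T_cell_4 and NK_cell_1. Gzmb had a median of 213 CPM (150 to 421), against 38.3 CPM in T_cell_1 and 1051 CPM in NK_cell_1.

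Most T_cell_2 cells held no granzyme UMI at equal depth. A UMI of Gzma, Gzmb or Gzmk was found in 25.1% of thinned T_cell_2 cells (52.2% unthinned), with a range of 18.9% to 28.0% over libraries. The thinned share was 4.50% in T_cell_1, 0.587% in T_cell_3, 0.252% in B_cell_1 and 92.4% in NK_cell_1. Ncr1, a defining receptor of NK cells, was found in 0.433% of thinned T_cell_2 cells (1.98% unthinned) against 34.5% of NK_cell_1 cells. A list of 7 NK cell markers was not low as a whole. Of these markers, 4 had their highest median of the T cell clusters in T_cell_2. Above T_cell_1 in every library were 3 of 7, against 2.65% of the 3134 genes compared, which the next paragraph describes. The part of NK cell RNA in the levels of T_cell_2 was not tested.

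Of the 17 genes in the cytotoxic effector list, 16 had their highest median of the 4 T cell clusters in T_cell_2. Of these 17 genes, 10 were above T_cell_1 in every library, while 2.65% of all 3134 genes compared did so. The genes compared had a median of 50 CPM or more in T_cell_2 or T_cell_1. For the 2916 genes compared with T_cell_3 below, the limit was on T_cell_2 or T_cell_3. Genes of the lists had no such minimum, and those absent from a dataset were counted over the remaining libraries. The sets of genes are thus unlike, and the shares are a description. The members included Nkg7, a granule membrane protein (2506 CPM against 1058 CPM in T_cell_1), the chemokine Ccl4 (2959 against 735 CPM) and the pore-forming protein Prf1 (74.8 against 13.9 CPM). Prf1 varied between datasets, from 5.66 to 10.5 CPM in Aachen to 62.6 CPM or more in each library of Bonn and Hamburg. The exception was Xcl1, a chemokine that attracts cross-presenting dendritic cells, with 579 CPM in T_cell_2 and 657 CPM in T_cell_1. The cytokine gene Ifng was at 447 and 440 CPM and was above T_cell_1 in 3 of 9 libraries.

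**Figure D1:**
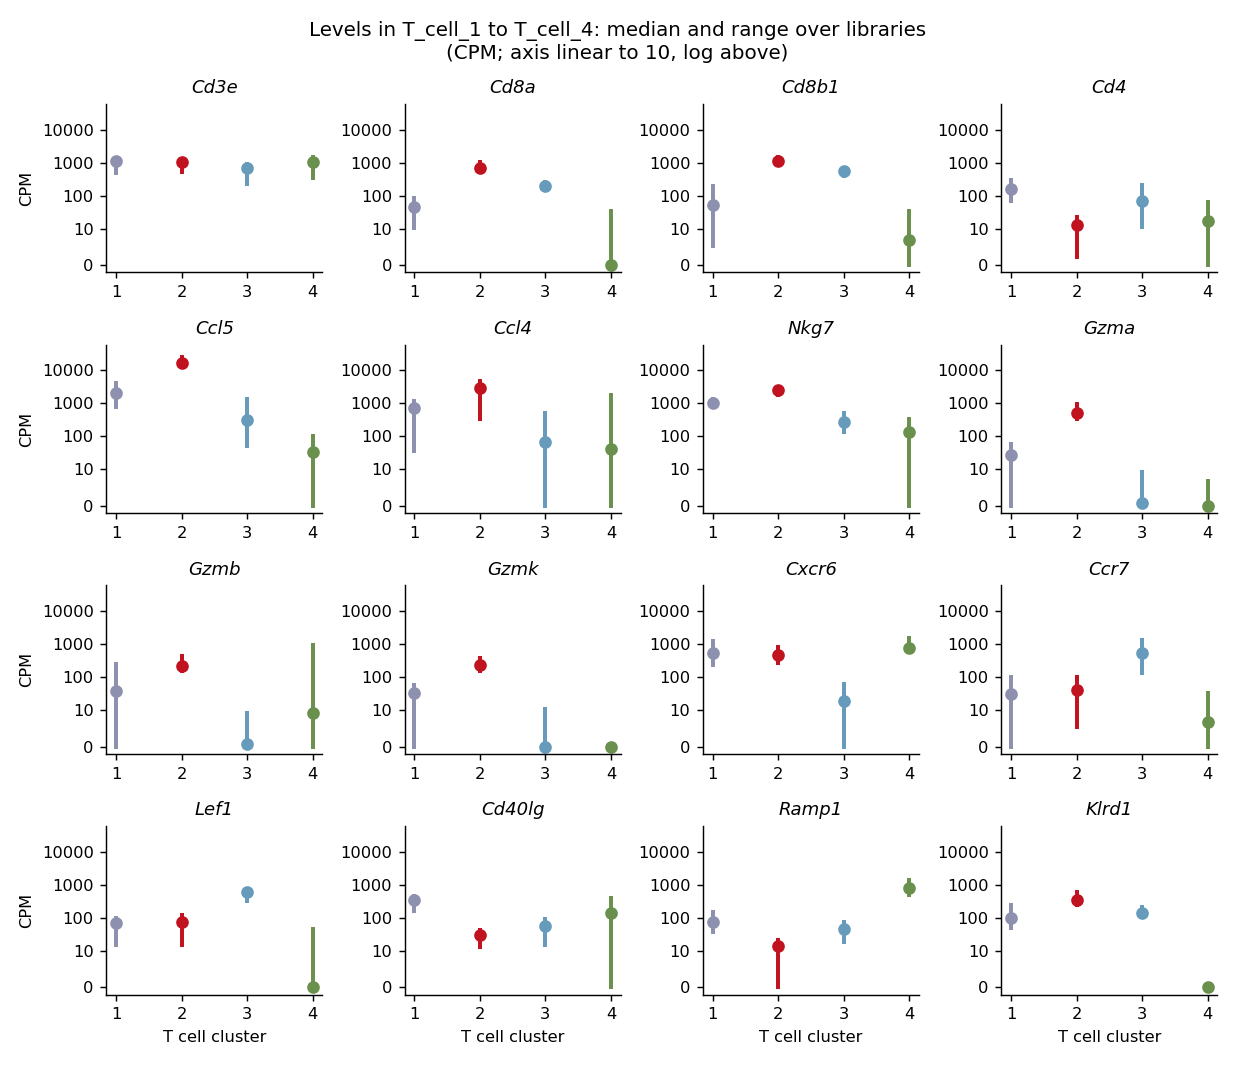
Median (dot) and range (line) of the CPM over libraries of 16 genes in the clusters T_cell_1 to T_cell_4, on a symmetric log axis that includes 0. Cd8a, Cd8b1, Ccl5 and the granzymes were highest in T_cell_2, whereas Cd3e was at 1073 CPM in T_cell_2 and 1083 CPM in T_cell_1.

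Receptors shared with NK cells followed. Of 12 genes in this list, 10 had their highest median of the T cell clusters in T_cell_2, and 4 were above T_cell_1 in every library, against 2.65% of all genes compared. Klrd1, which encodes CD94, was at 435, 595 and 462 CPM in the cortex, OM and IM of Aachen, at 278, 434 and 338 CPM in Bonn and at 237, 259 and 281 CPM in Hamburg. These values were highest in Aachen, and the median of 338 CPM compared with 101 CPM in T_cell_1 and 143 CPM in T_cell_3. Cd160, a receptor for the herpesvirus entry mediator, was at 131 CPM against 32.2 CPM in T_cell_1.

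The genes with the largest ratio to the other T cell clusters held further regulators of CD8+ T cells. Eomes, a transcription factor of memory CD8+ T cells and NK cells, was at 83.9 CPM (11.3 to 152) against 14.9 CPM in T_cell_3 and 3.37 CPM in T_cell_1. Zeb2, a transcription factor of terminal effector cells, was at 82.2 CPM against 23.8 CPM in T_cell_1. Cd7, a surface glycoprotein of T and NK cells, was at 425 CPM against 92.7 CPM in T_cell_4, the next cluster. The inhibitory receptor Lag3 was at 79.0 CPM against 15.9 CPM in T_cell_1, and was above it in 8 of 9 libraries. Apoe was also among these genes, with 89.4 CPM against 14.8 CPM, but it ranged from 9.66 to 2338 CPM over the libraries and is a gene of macrophages, which held 8293 CPM.

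At the other end were genes that T_cell_2 lacked relative to each of the other T cell clusters. Cd40lg, through which helper T cells activate B cells and macrophages, was at 30.8 CPM (12.9 to 43.1) in T_cell_2, 344 CPM in T_cell_1, 54.8 CPM in T_cell_3 and 139 CPM in T_cell_4. The neuropeptide coreceptor Ramp1 was at 14.4 CPM against 75.8, 45.6 and 784 CPM, and its relative Ramp3 had 16 UMIs in all libraries of T_cell_2. Tnfrsf25, the death receptor 3, was at 3.22 CPM against 31.2 CPM in T_cell_1. Of 14 genes for checkpoint and costimulation, Icos, Cd28, Tnfrsf4, Tnfrsf18, Cd40lg and Cd226 were below T_cell_1 in every library, which is 6 of 14 genes against 6.60% of all genes compared. Only Havcr2 of this list was above T_cell_1 in every library (14.8 against 4.01 CPM), while 2.65% of all genes compared were.

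Genes of naive and circulating T cells separated T_cell_2 from T_cell_3. None of the 14 genes of this list was highest in T_cell_2, and 10 were below T_cell_3 in every library, against 5.69% of 2916 genes compared. The homing receptor Ccr7 was at 39.6 CPM (5.27 to 98.8) in T_cell_2 and 520 CPM in T_cell_3. The transcription factor Lef1 was at 75.8 and 589 CPM. A UMI of Ccr7 or Lef1 was found in 5.14% of thinned T_cell_2 cells (19.5% unthinned) and in 44.9% of thinned T_cell_3 cells. T_cell_1 held such a UMI in 4.76% of thinned cells, and Klf2, a transcription factor that maintains the exit receptor S1pr1, was above T_cell_1 in 9 of 9 libraries (1668 against 1099 CPM).

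Memory and effector genes showed the opposite side of this contrast. Of 16 genes, 15 were above T_cell_3 in every library, while 22.8% of all genes compared did so. S100a6, a calcium-binding protein of activated and memory cells, was at 1586 CPM (1300 to 1966) in T_cell_2 and 61.7 CPM in T_cell_3. Against T_cell_1 the list was divided, with 2 of 16 genes above it and 4 below it in every library. Of all genes compared, 2.65% were above it and 6.60% below it in every library. S100a6 (985 CPM in T_cell_1) and Eomes were above, whereas Cd44, Cxcr3, Id2 and Ccr2 were below. Cxcr3, a receptor for interferon-induced chemokines, was at 224 CPM in T_cell_2 and 318 CPM in T_cell_1.

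Residency genes did not separate T_cell_2 from T_cell_1 in one direction. Cxcr6, a chemokine receptor of resident T cells, had medians of 456 CPM in T_cell_2 and 555 CPM in T_cell_1, and only 19.2 CPM in T_cell_3. Runx3, a transcription factor of CD8+ and resident T cells, was above T_cell_1 in 9 of 9 libraries (259 against 156 CPM), while Rgs1 and Rgs2 were below it in 9 of 9. These were 1 and 2 of the 12 genes of this list, against 2.65% and 6.60% of all genes compared. Itgae, the integrin chain CD103, was at a median of 5.66 CPM (0 to 23.6) in T_cell_2, with 44 UMIs in all.

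Markers of other T cell types were low or without a UMI. Il4, Il5, Il13, Il17a and Il23r had 0 UMIs among the 4646719 UMIs of T_cell_2, which allows up to 0.646 CPM (3 counts, counting error only). The median of Il17a was 537 CPM in T_cell_4. Foxp3, the factor of regulatory T cells, had 5 UMIs. The γδ receptor chain Trdc had a median of 22.6 CPM over the 6 libraries of Bonn and Hamburg, against 173 CPM in T_cell_4.

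Immediate early genes, which respond within minutes to stimulation, were lower than in T_cell_1 for 8 of 16 genes in every library, against 6.6% of all genes compared. Nr4a2, a nuclear receptor of this group, was the exception and was above T_cell_1 in 9 of 9 libraries (292 against 99.6 CPM).

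Within T_cell_2, cells with and without Gzma differed in other genes, and so did cells with and without Gzmk. Gzma was found in 98 of 619 cells in Aachen, 48 of 405 in Bonn and 85 of 640 in Hamburg. Gzma+ cells held Cxcr6 less often than Gzma- cells in each dataset, with 12.2% against 33.8% in Aachen, 39.6% against 78.2% in Bonn and 37.6% against 55.0% in Hamburg. After thinning, these pairs were 5.63% and 19.2%, 6.06% and 34.1%, and 6.12% and 15.2%. Xcl1 was likewise less frequent in Gzma+ cells, at 7.14% against 29.0%, 25.0% against 51.3% and 28.2% against 59.5%. Klrd1 was more frequent in Gzma+ cells, with 57.1% against 33.6% in Aachen, 75.0% against 38.7% in Bonn and 61.2% against 38.9% in Hamburg. By contrast, Gzmk+ cells held Cxcr6 in 53.9%, 76.8% and 61.5% of cells, and Gzmk- cells in 25.7%, 70.3% and 45.1%. Gzma was found in 12.7% of Gzmk+ and 16.4% of Gzmk- cells in Aachen, in 14.8% and 8.91% in Bonn and in 13.2% and 13.4% in Hamburg, so that Gzmk+ cells did not hold it less often in each dataset. These shares describe cells of the same libraries, and no test was made on them.

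UMIs of T cell receptor β variable genes (Trbv), of which a T cell clone uses one for its receptor, were spread over many genes. They were found in 268 of 287, 37 of 40 and 69 of 78 T_cell_2 cells in the cortex, OM and IM of Bonn, and in 234 of 254, 127 of 144 and 227 of 242 cells in Hamburg. Between 13 and 22 Trbv genes led in at least 1 cell of a library. UMIs of more than 1 Trbv gene were held by 107, 16 and 15 of these cells in the cortex, OM and IM of Bonn. In Hamburg 62, 35 and 75 cells did so. The leading gene of a cell is therefore not always that of its receptor, and the source of the further Trbv UMIs was not tested. Trbv3 had the largest median share, with 23.7%, 14.3% and 11.9% of Trbv UMIs in the cortex, OM and IM of Bonn and 21.5%, 29.4% and 13.7% in Hamburg. It was the leading gene by cells in 4 of the 6 libraries. In the Bonn OM, Trbv13-1 led with 27.2% of 265 Trbv UMIs and also led by cells, with 8 of 37. Near-identical copies such as Trbv12-1 and Trbv12-2 may share reads, so their separate shares are uncertain.

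**Figure D2:**
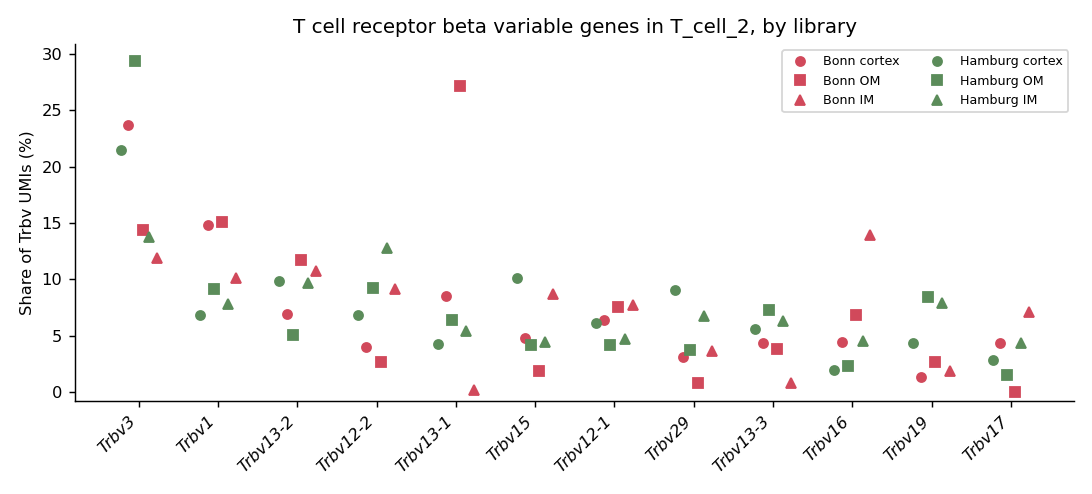
Share of the Trbv UMIs of T_cell_2 taken by 12 Trbv genes, with 1 point for each of the 6 libraries of Bonn and Hamburg. Trbv3 had the highest median (17.9%), and Trbv13-1 ranged from 0.202% in the Bonn IM to 27.2% in the Bonn OM.

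The share of T_cell_2 among the cells of T_cell_1 to T_cell_4 was compared between compartments. Aachen had 37.1% in the cortex, 44.0% in OM and 39.7% in IM. The corresponding shares were 24.0%, 33.9% and 26.8% for Bonn, and 25.5%, 31.6% and 37.9% for Hamburg. The cortex was the lowest compartment in 3 of 3 datasets, although the datasets overlapped. The cortex averaged 28.9% ± 7.19, the OM 36.5% ± 6.61 and the IM 34.8% ± 6.97 (SD, n = 3). The medulla, taken as the mean of OM and IM, was above the cortex by 6.78 ± 2.29 percentage points (SD, n = 3), with an exact permutation p of 0.0741 (two-sided, labels permuted within datasets) and an adjusted value of 0.148 over both shares tested. With 27 arrangements the smallest p that this test could reach was 0.0370 before adjustment. With the other share at a permutation p of 0.407, even that value would not have passed 0.05 after adjustment. Therefore the test could not establish a difference at the threshold of 0.05, and none is concluded from it.

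Among all immune cells the order was different. T_cell_2 made up 11.3%, 5.30% and 12.9% of the immune cells in the cortex, OM and IM of Aachen. These shares were 7.83%, 6.44% and 4.16% for Bonn, and 10.4%, 5.87% and 11.8% for Hamburg. The OM was below the cortex in 3 of 3 datasets, whereas the IM was above it in Aachen and Hamburg and below it in Bonn. The medulla differed from the cortex by -2.09 ± 0.492 points (SD, n = 3), with an exact permutation p of 0.407 and the same adjusted value. Both shares depend on how many cells of other types were recovered from each compartment.

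**Figure D3:**
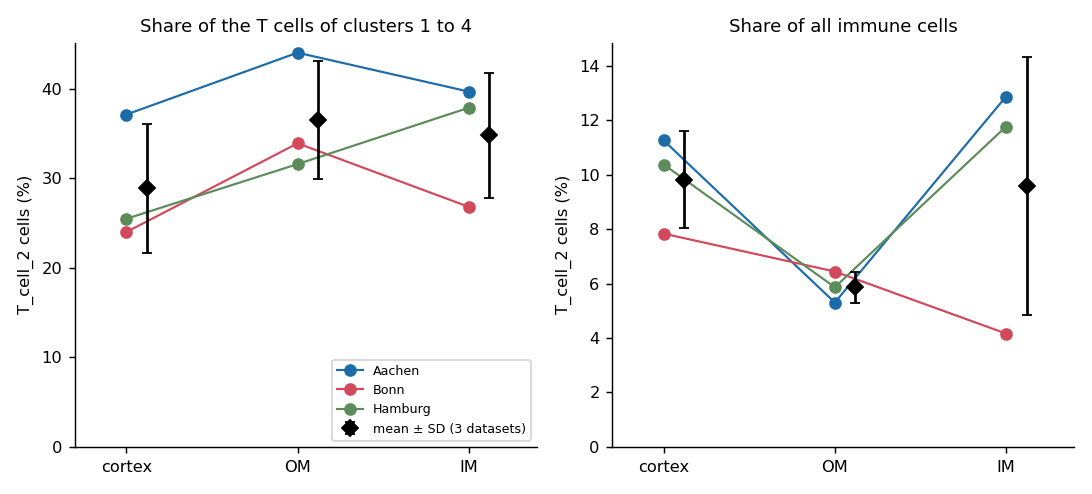
Share of T_cell_2 in percent of T cells and of all immune cells in cortex, OM and IM, with 1 line per dataset and the mean ± SD over the 3 datasets. Among T cells the cortex was lowest in each dataset, and among all immune cells the OM mean was 5.87%.

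Gene expression of T_cell_2 was then compared between compartments with edgeR's quasi-likelihood test on summed counts, with the dataset as a block and Benjamini-Hochberg adjustment over 5267 genes. Few genes passed. Between medulla and cortex 1 gene passed the threshold of 0.05, a lower one, which is 0.019% of the genes tested, while 4.35% had an unadjusted p under 0.05. For OM against cortex 1 gene was higher and 1 lower (0.038%), and for IM against cortex 1 gene was higher (0.019%). None passed for OM against IM, where 211 genes (4.01%) had an unadjusted p under 0.05 in edgeR and DESeq2 also called 0. The median log2 fold change over all genes was 0.00 for medulla against cortex, and the median standard error was 0.22. In summed cells, fewer cells that express a gene and less RNA per cell cannot be told apart.

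The gene called lower in the medulla was Gm8797, a predicted gene annotated as protein-coding (mm10, chr3:5750806-5751295, plus strand). Its level was 1448, 384 and 790 CPM in the cortex, OM and IM of Aachen, 0, 0 and 3.59 CPM in Bonn and 7.70, 1.82 and 4.30 CPM in Hamburg. Thus the cortex was highest in Aachen and Hamburg, and 645 of its 658 UMIs in T_cell_2 (98.0%) were from Aachen. The log2 fold change was -1.33 ± 0.20 (SE; edgeR, adjusted p = 0.00922) for medulla against cortex and -1.81 ± 0.26 (adjusted p = 0.00402) for OM against cortex. The summed cells of the other T cell clusters showed the same order in Aachen, with 1328, 471 and 741 CPM. Without Aachen, Gm8797 did not pass the filter on low counts and was not tested. For medulla against cortex the call was also lost without Hamburg (adjusted p = 0.272), without the Hamburg IM (0.0946) and without each single Aachen library, and for OM against cortex without Hamburg (0.0878), the Aachen cortex or the Aachen OM. With DESeq2 the adjusted p was 0.212 for medulla against cortex.

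Cst3, which encodes the protease inhibitor cystatin C (mm10, chr2:148871722-148875692), was called higher in the OM than in the cortex. Its level was 583, 2011 and 1150 CPM in the cortex, OM and IM of Aachen, 230, 247 and 255 CPM in Bonn and 107, 535 and 105 CPM in Hamburg. The OM was above the cortex in 3 of 3 datasets, with a small difference in Bonn. The log2 fold change was 1.61 ± 0.28 (SE; edgeR, adjusted p = 0.0258). At least 2 UMIs of the macrophage, B cell and MHC class II lists together were present in 47.3% of T_cell_2 cells, from 34.4% in the Aachen cortex to 63.1% in the Aachen OM. The log2 fold change fell to 0.48 (adjusted p = 0.973) when such cells were left out, and to 0.57 (adjusted p = 0.975) when Cst3, itself a member of the macrophage list, was not counted in choosing them. It was 0.34 when cells with 10 or more were left out. The call was also lost without Aachen (adjusted p = 0.496), without Hamburg (0.477), without the Aachen cortex (0.173) or OM (0.221) and without the Hamburg cortex (0.175) or OM (0.308), and with DESeq2 (0.478).

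Markers of macrophages moved with this result. The 10 genes of the macrophage list summed to 24.2, 87.3 and 52.0 UMIs per 10000 UMIs of T_cell_2 in the cortex, OM and IM of Aachen. The sums were 8.42, 6.06 and 7.44 for Bonn, and 2.21, 7.51 and 2.15 for Hamburg. In resident macrophages the sum was 319 to 771, and in T_cell_1 it was 2.29 to 65.7 with the same order in Aachen. None of the defining markers C1qa, C1qb, C1qc and Csf1r was at 0 in any library of T_cell_2. All 10 genes had a positive log2 fold change for medulla against cortex in the fit over all datasets, with a median of 0.90 against 0.00 over all genes. Of them, 7 of 10 were higher with an unadjusted p under 0.05 in edgeR, against 2.37% of all genes. By dataset the median was 1.43 in Aachen, -0.22 in Bonn, where 6 of 10 were lower, and 0.31 in Hamburg. MHC class II genes showed a median of 1.38 for OM against cortex (4 genes), and H2-Eb1, Cd74, H2-Aa, Apoe and C1qc stood among the 10 genes with the smallest p without passing, with adjusted p from 0.119 to 0.285 in edgeR. These genes belong to the lists by which cells with UMIs of other cell types were chosen. Leaving such cells out therefore could not test the part of macrophage RNA in them, and no other test of it was made.

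**Figure D4:**
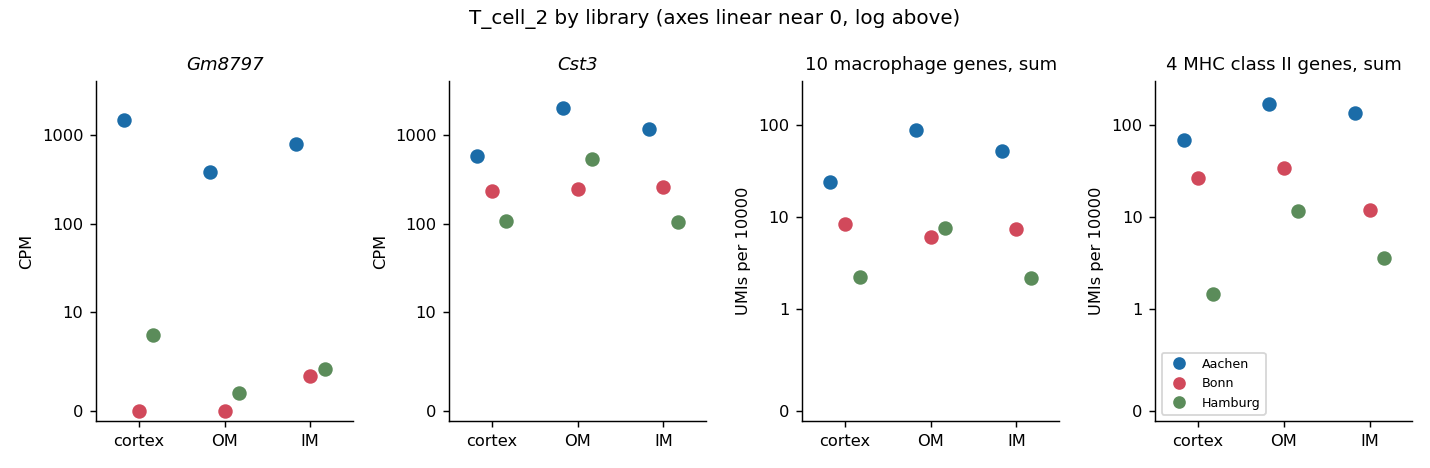
CPM of Gm8797 and Cst3 in T_cell_2, and summed UMIs per 10000 of the macrophage and MHC class II lists, by compartment with 1 point per library, coloured by dataset. Gm8797 was at 384 to 1448 CPM in Aachen and at most 7.70 CPM elsewhere, and Cst3 and both lists were highest in the Aachen OM.

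Trbv16, a T cell receptor β variable gene (mm10, chr6:41151740-41152230), was called higher in the IM than in the cortex. It was at 87.6, 135 and 248 CPM in the cortex, OM and IM of Bonn and at 30.8, 32.7 and 69.8 CPM in Hamburg, and Aachen held no UMI of it. The IM was highest in both datasets, and the log2 fold change was 1.38 ± 0.21 (SE; edgeR, adjusted p = 0.0131). Trbv16 was the leading Trbv gene in 8 of 69 cells with a Trbv UMI in the Bonn IM, against 11 of 268 in the cortex, and in 6 of 227 and 4 of 234 cells in Hamburg. The call was lost without Bonn (adjusted p = 0.788), without Hamburg (0.210), without the Bonn cortex (0.385) or IM (0.691) and without the Hamburg IM (0.146), and in the thinned cells, where the log2 fold change was 0.40 (adjusted p = 0.998). It was also lost with DESeq2 (adjusted p = 0.9998), without cells with 10 or more UMIs of the other-cell lists (0.322) and without those with 2 or more when Cst3 was not counted (0.435).

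Further genes among the 10 with the smallest p did not pass. For medulla against cortex they included Jaml, an adhesion molecule of T cells (-1.01, adjusted p = 0.510), Trbv29 (-0.85), the macrophage lectin Mgl2 (1.65, adjusted p = 0.529) and Dnajb9, a chaperone of the endoplasmic reticulum (-0.83, adjusted p = 0.610). For IM against cortex they included Trbv3 (-0.92, adjusted p = 0.356) and the stress-induced transcription factor Ddit3 (-1.01).

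For the genes that defined T_cell_2, no difference between compartments passed the test. None of the 16 cytotoxic genes tested passed, their median log2 fold change for medulla against cortex was 0.08, and 11 were positive. By dataset the median was -0.23 in Aachen, where 11 of 16 were lower, 0.16 in Bonn and 0.12 in Hamburg. The log2 fold change was 0.16 for Ccl5 (95% interval -0.02 to 0.33), -0.11 for Cd8a (-0.34 to 0.13), -0.12 for Cd8b1 (-0.37 to 0.12) and 0.00 for Nkg7 (-0.21 to 0.20). Gzma, Gzmb and Gzmk had 0.21 (-0.13 to 0.54), 0.09 (-0.20 to 0.38) and 0.16 (-0.10 to 0.42). The intervals of these 7 genes lay within 0.54 on the log2 scale in either direction. The direction of Gzma was not stable, since it was lower in the medulla of Aachen and higher in Bonn and Hamburg, and in thinned cells Gzma and Gzmk turned to -0.017 and -0.037. Gzmb turned to -0.16 without Hamburg.

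Of the residency genes, Cxcr6 and Itga1 were lower in the medulla of each dataset without passing. Cxcr6 was at 474, 263 and 456 CPM in the cortex, OM and IM of Aachen, at 798, 635 and 643 CPM in Bonn and at 401, 279 and 287 CPM in Hamburg. The cortex was highest in 3 of 3 datasets, and the log2 fold change for medulla against cortex was -0.41 ± 0.12 (SE; 95% interval -0.66 to -0.15) with an adjusted p of 0.767 in edgeR. Itga1, the integrin chain CD49a, had -0.42 (-0.80 to -0.03). Over the 11 residency genes tested the median was -0.21, with 8 negative. By dataset the median was -0.42 in Aachen, 0.46 in Bonn and -0.43 in Hamburg, so the list did not move in one direction.

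The interferon response list was below 0 in each dataset. Of 13 genes tested, 12 had a negative log2 fold change for medulla against cortex, with a median of -0.26 against 0.00 over all genes, and by dataset the median was -0.20 in Aachen, -0.42 in Bonn and -0.22 in Hamburg. None passed the adjusted threshold, and 2 of 13 were lower with an unadjusted p under 0.05 in edgeR, against 1.97% of all genes. These were Ifi27l2a (-0.26) and Rtp4 (-0.57). The 10 heat shock genes had a median of -0.18. Of them, 3 were lower and 1 was higher with an unadjusted p under 0.05 in edgeR, against 1.97% and 2.37% of all genes. By dataset their median was -0.24 in Aachen, 0.07 in Bonn and -0.19 in Hamburg. The hypoxia and glycolysis list (14 genes tested) and the osmotic response list (7 genes tested) had medians of 0.10 and 0.13. No gene passed in any of these lists.

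**Figure D5:**
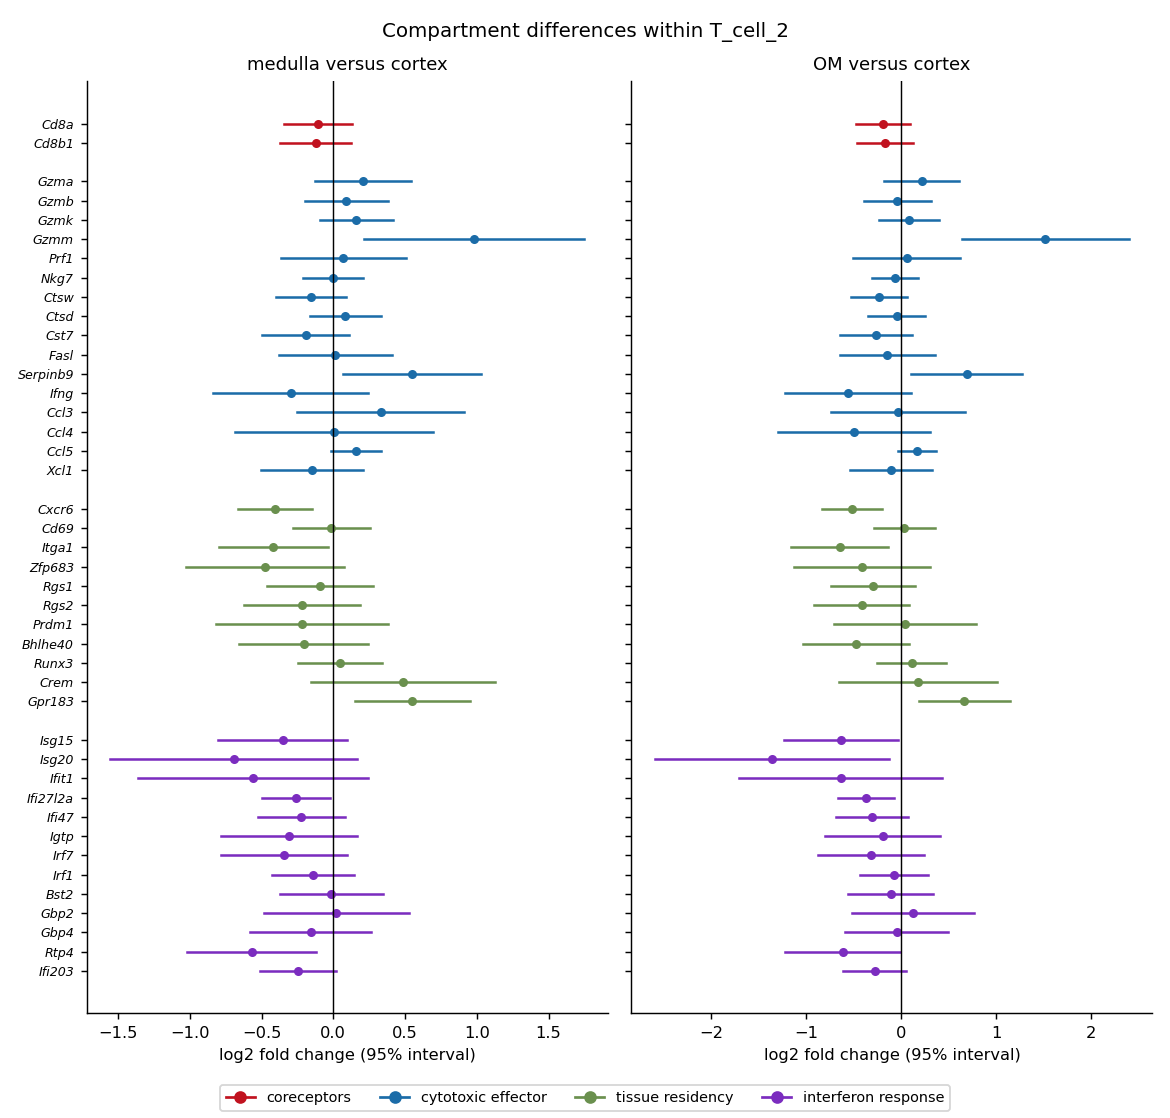
Log2 fold changes with 95% intervals of coreceptor, cytotoxic, residency and interferon response genes in T_cell_2, for medulla against cortex and for OM against cortex. None of these genes passed the adjusted threshold, and 12 of 13 interferon response genes were below 0 for medulla against cortex.

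It was then asked whether the medulla effect differed between T_cell_2 and the other T cell clusters of the same libraries. None of 7340 genes passed in the interaction term of edgeR, and DESeq2 also called 0, while 332 genes (4.52%) had an unadjusted p under 0.05 in edgeR. The smallest adjusted p was 0.0533, for Id3, an inhibitor of E proteins (-1.46), and for the macrophage gene Lyz2 (-2.01). The chemokine Ccl3 (1.33, adjusted p = 0.0836) and Gzma (1.86 ± 0.51, SE, adjusted p = 0.854) were among the 10 genes with the smallest p. Of 17 cytotoxic genes, 15 had a positive interaction, with a median of 0.42 against 0.00 over all genes, and 9 of 17 were positive with an unadjusted p under 0.05 in edgeR, against 2.28% of all genes, although none passed. This count moved with the clusters that were compared. T_cell_3, which held little cytotoxic RNA (12.1 UMIs per 10000 UMIs for the list, against 71.9 in T_cell_1), made up 15.04%, 35.9% and 18.5% of the other T cells in the cortex, OM and IM of Aachen. Its share was 29.5%, 29.5% and 24.4% for Bonn, and 23.1%, 42.6% and 46.3% for Hamburg. In a comparison added after seeing the data, against T_cell_1 alone, 15 of 17 genes were positive with a median of 0.30. Of them, 4 (23.5% of the list) had an unadjusted p under 0.05 in edgeR, against 2.08% of all genes. Against T_cell_3 alone 8 of 16 were positive with a median of 0.12, and Gzma (-0.21) and Ccl3 (-0.67) turned negative. In this comparison 2 genes (12.5%) were positive with an unadjusted p under 0.05 in edgeR, against 1.22% of all genes. No gene passed in either comparison in edgeR, where 291 and 147 genes had an unadjusted p under 0.05.

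Single genes passed in the interaction under other settings. Lyz2 was called in 7 of 21, Id3 in 5 of 23, Ccl3 in 5 of 24 and Gzma in 3 of 24 alternatives in which they were tested. Id3 and Lyz2 passed when the test was limited to genes with UMIs in all 3 datasets, and Gzma passed without Bonn and without the Bonn cortex. Without cells with 2 or more UMIs of the macrophage, B cell and MHC class II lists 6 genes passed, among them Ccl4, Cd8a and the NK receptor gene Klrk1.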

How the data were processed

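RNA of single immune cells of 3 kidney compartments was sequenced in 3 datasets. The authors aligned reads to mm10 with Cell Ranger, filtered, integrated and clustered the cells in Seurat, and deposited 1 table of estimated counts per cell and gene with compartment, cluster and dataset, in which Hamburg values lie just below whole numbers. Aachen used the v2 chemistry and the other datasets v3, so chemistry and dataset cannot be told apart. The number of mice per dataset and any removal of doublets are not given in the sources used here, and no doublet caller was run. Hamburg cells of all compartments share 1 barcode suffix, and Aachen compartments have 2 suffixes each. Library pairs shared 0 to 16 barcodes over all cells, and 1 barcode of T_cell_2 was shared.

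Counts of T_cell_2 were summed per library and rounded. edgeR 4.0.16 in R 4.3.3 (filterByExpr, TMM, quasi-likelihood test) was fitted with dataset as a block, after the labels' compartments, and libraries under 10 cells were to be left out. Libraries of the same dataset deviated together (r = 0.673 to 0.863 for 9 pairs over 2725 genes, against -0.806 to 0.238 for 27 other pairs), and the dataset is given in the table for each cell. Levels were first centred over the libraries of each compartment, which by itself pushes the correlations of the other pairs below 0. The interaction was fitted with the library as a block. DESeq2 1.42.0, other filters and scalings, thinning to 500 UMIs, removal of cells with UMIs of other cell types and leaving out each dataset or library were alternatives. Shares used exact permutation tests. On data simulated for medulla against cortex (5061 genes), the fit recovered 97% of 100 genes changed 2-fold and of 100 changed 4-fold, and 15 of 209 calls (7.18%) were false. The changed genes were drawn from those with mean counts over 20 and changed alike in OM and IM of each dataset. Recovery of genes with fewer counts, or of changes that differ between datasets, was not tested. Coordinates come from the GENCODE annotation of mm10. Intervals of edgeR cover the spread between libraries, which may be technical.

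The genes named between compartments were, since fewer than 5 genes passed with 1 direction in 3 datasets, the 10 with the smallest p. Between clusters they were the 15 genes with the largest and the 15 with the smallest ratio of medians at 50 CPM or more, from which a few are named, and members of gene lists. The members and lists were chosen with earlier results of these data known. Some genes of these lists are not reported here, and the lists were summarised without them.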

Additional observations from a re-analysis of the deposited data

Results flagged for a closer look

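Immediate early genes moved in opposite directions in Aachen and Bonn. The median log2 difference of medulla from cortex over 16 genes in T_cell_2 was -0.70 in Aachen, where 15 of 16 were lower, and 0.79 in Bonn, where 16 of 16 were higher, so that Bonn exceeded Aachen by 1.49. In Hamburg the median was -0.13. The RNA quality list (Malat1, Neat1 and 8 mitochondrial genes) had medians of -0.39 in Aachen, where 9 of 10 were lower, 0.06 in Bonn, where 10 of 10 were higher, and 0.14 in Hamburg, and its part in the result was not tested. The summed list was at 139, 77.6 and 106 UMIs per 10000 UMIs in the cortex, OM and IM of Aachen, with 27.7, 39.3 and 58.7 for Bonn and 170, 155 and 151 for Hamburg. The B cell cluster B_cell_1 had the same order of cortex and medulla, with 165, 103 and 153 in Aachen, then 38.8, 40.0 and 64.4 for Bonn and 249, 239 and 236 for Hamburg. This difference between datasets was not tested, since each holds 1 library per compartment.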

How the results depend on the processing

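The counts of called genes were small and moved with the processing. With cortex as the base for medulla, OM and IM, followed by OM against IM and the interaction, the counts were 1, 2, 1, 0 and 0. They were 0, 1, 0, 0 and 0 with DESeq2, 23, 31, 12, 27 and 18 without the filter on low counts, 0 in each without the replicate block (the fit that ignores the pairing by dataset), and 2, 3, 0, 2 and 0 in cells thinned to 500 UMIs. Without cells with 2 or more UMIs of other cell types they were 1, 1, 0, 1 and 6, and without cells with 10 or more, an alternative added after seeing the data, 1, 1, 0, 0 and 4. When Cst3 was not counted in choosing cells with 2 or more, also added later, they were 1, 1, 0, 0 and 3. Limited to genes with UMIs in all 3 datasets, also added later, they were 1, 2, 0, 0 and 2. Leaving out 1 dataset or library gave 0 to 18, 0 to 29, 1 to 8, 0 to 12 and 0 to 5. The counts were 18, 23, 4, 7 and 2 without Bonn and 17, 29, 8, 12 and 2 without the Bonn cortex, 14 for OM against cortex without the Bonn IM, and 5 for the interaction without the Aachen IM. TMM scaling and rounding changed no count. The cause was not tested.

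The share of T_cell_2 among T cells differed by 5.54 to 7.80 points and that among immune cells by -2.35 to -1.86 points when 1 dataset was left out, where the smallest p possible is 0.111. Reversed directions, all among genes that did not pass, were Gm10126 with DESeq2 (0.44 for medulla and 0.72 for OM against cortex), Gzma (-0.017) and Gzmk (-0.037) in thinned cells, and Gzma without Hamburg (-0.020, with leave-one-out values up to 0.51). Gzmb reversed without cells with 2 or more UMIs of other cell types (-0.10) and without Hamburg (-0.16), its cortex (-0.12) or its OM (-0.05), with leave-one-out values up to 0.20. For OM against cortex, Apoe reversed without Aachen (-0.32) and without the Aachen OM (-0.27), with values up to 2.18, and Cd74 without cells of other-cell UMIs chosen with Cst3 not counted (-0.066). For OM against IM, Igkv6-23 reversed without the Hamburg IM (-2.41, other values up to 1.82) and Gm10116 with DESeq2 (0.34) and without the Aachen OM (0.070, other values down to -1.23). In the interaction against T_cell_3 alone, added later, Ccl3 (-0.67), Gzma (-0.21) and Ctla2a (-0.027) reversed. Among named genes, 974 values kept direction and side of the threshold. Another 112 passed only in the alternative, 32 passed only in the main fit and 18 reversed. Depth limits the Aachen values and the Bonn OM most, with 976 UMIs per cell and 40 cells.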
